A study of Mus musculus with 2 samples.

Results

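The Hox, Pax, Sox, Fox, Tbx, Gata, Lhx, Nkx, Irx, Dlx, Meis and Pitx genes and the family of Six6 encode DNA-binding proteins that give tissues their position and identity in the embryo. They were chosen by gene symbol, as every gene in the array's annotation whose symbol begins with 1 of these 13 family names followed by that family's letter or number, so Paxip1, Paxbp1, Paxx, Tbxa2r, Tbxas1 and Foxred1 were left out. The rule took 115 of the 10208 genes named on the array. RefSeq lists 176 protein-coding mouse genes that meet the same rule, and the members without a named probe, among them Pax2, Six2, Sox9, Irx1 and Hoxc11, are not analysed here. Kidney RNA was hybridised from 1 Mxi1 -/- mouse, the experiment, and from 1 Mxi1 +/+ mouse, the control, each on 1 single-colour array. Both samples carry the label 1Y. The Mxi1 protein pairs with MAX and competes with MYC for E-box DNA. The labels do not name the deleted part of the gene, the strain or the sex. The Mxi1 probe itself read 1.69 in the Mxi1 -/- kidney against 4.31 in the Mxi1 +/+ kidney, and whether that probe lies in the deleted part is not given in the labels.

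Hox genes lie in 4 clusters, and their order along each cluster matches the order of body levels at which they act, so low paralog numbers mark anterior and high numbers posterior regions. Pax, Lhx and Gata factors build the nephric duct and the nephron, Fox factors mark stroma and tubule cell types, and SoxF factors mark vessels. Several persist in the adult kidney in single cell types: Gata3 in the collecting duct, Foxi1 in intercalated cells and Irx3 along the tubule.

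Each value is an array intensity in arbitrary units, and each difference is log2 of the intensity in Mxi1 -/- minus that in Mxi1 +/+ after both arrays were centred on their medians. The brightness of a probe depends on its sequence, so the intensities of different genes are not set against each other. The noise floor, 3 times the root mean square of an array's values below 0, was 0.156 for Mxi1 -/- and 0.102 for Mxi1 +/+. Because there was 1 kidney per genotype, no difference has a spread between animals, none carries a p-value, and 2-fold is a line of size. The only error at hand is the spread between probes of the same gene: its SD on the log2 difference was 0.167 per probe in 41 genes at or above the median level of all probes, and 0.494 in 18 genes below it. For dim members this SD is about 1.41-fold per probe, before any difference between animals. It includes differences between the sequences of the probes and leaves out any error that the probes of an array share. In whole-kidney RNA, fewer cells of a type and less RNA per cell cannot be told apart.

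The start-site sequences of 4 members are shown, because Hoxa13 and Tbx20 had the largest differences of the 115 genes, and Dlx2 and Gata5 are the members at or above the median level with the most copies of CACGTG and the largest difference among its holders. CACGTG, the E-box that MYC, MAX and MXI1 complexes are known to bind, is in capitals. It reads the same on both strands. Each sequence runs 5′ to 3′ on the gene's strand from 250 bases before to 50 bases after a RefSeq start (build GRCm38.p6): Hoxa13 at chr6:52260831-52261130 on the minus strand, Tbx20 at chr9:24774254-24774553 on the minus strand, Dlx2 at chr2:71546705-71547004 on the minus strand and Gata5 at chr2:180334630-180334929 on the minus strand.
Hoxa13: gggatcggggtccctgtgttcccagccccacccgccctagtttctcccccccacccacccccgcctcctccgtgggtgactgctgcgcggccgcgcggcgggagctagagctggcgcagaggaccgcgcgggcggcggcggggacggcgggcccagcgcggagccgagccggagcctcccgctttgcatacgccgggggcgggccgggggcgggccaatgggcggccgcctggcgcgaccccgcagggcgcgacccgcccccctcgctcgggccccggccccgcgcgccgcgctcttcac
Tbx20: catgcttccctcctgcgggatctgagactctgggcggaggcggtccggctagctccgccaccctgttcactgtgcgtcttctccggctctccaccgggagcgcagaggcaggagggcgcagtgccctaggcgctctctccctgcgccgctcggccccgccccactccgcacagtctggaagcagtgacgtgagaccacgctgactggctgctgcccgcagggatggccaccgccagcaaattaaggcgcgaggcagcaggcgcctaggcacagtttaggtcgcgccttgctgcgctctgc
Dlx2: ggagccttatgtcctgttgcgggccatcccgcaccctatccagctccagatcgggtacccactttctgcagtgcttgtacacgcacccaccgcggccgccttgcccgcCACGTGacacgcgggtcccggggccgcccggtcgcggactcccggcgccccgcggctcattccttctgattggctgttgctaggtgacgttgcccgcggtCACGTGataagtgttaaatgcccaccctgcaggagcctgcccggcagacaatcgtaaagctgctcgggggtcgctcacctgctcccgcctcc
Gata5: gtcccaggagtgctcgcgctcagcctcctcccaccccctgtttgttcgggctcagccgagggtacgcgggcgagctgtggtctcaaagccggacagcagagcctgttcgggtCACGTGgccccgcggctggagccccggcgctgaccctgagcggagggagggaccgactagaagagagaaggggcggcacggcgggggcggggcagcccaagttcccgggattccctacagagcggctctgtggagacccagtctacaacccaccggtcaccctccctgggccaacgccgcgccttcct

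The promoter table held 81 of the 115 members. CACGTG occurred in the windows of 9 of them, or 11.1% of genes, against 8.09% of all 27025 genes in the table. The 9 were Dlx2, Foxd3, Gata5, Hoxd1, Hoxd10, Hoxd11, Hoxd13, Nkx1-2 and Nkx2-2, of which 5 read above the floor on both arrays. Dlx2 holds the motif at 142 and at 42 bases before the start, and Gata5 holds it at 138 bases before it. None of the 6 members past 2-fold that the table holds had CACGTG in these windows. A match is a description of letters, not a binding site. The windows of the members were richer in G and C than those of all genes, with medians of 60.8% and 52.7%, and the Hoxa13 window reached 81.0%.

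Of the 115 members, 86 read above the floor on both arrays, 18 on 1 array and 11 on neither. In Mxi1 -/-, 51 of the 86 read higher and 35 read lower. Their median on the log2 scale was 0.07, beside -0.04 over all 8735 genes measured this way. At least 2-fold higher were 6 members (Hoxa13, Tbx20, Sox5, Hoxa6, Foxq1 and Pax5), and Pax8 was at least 2-fold lower. The count has to be read by level. At or above the median level, 2 of 45 members were at least 2-fold higher, where 0.558% of all genes at that level were, and none was at least 2-fold lower, where 1.39% of all genes were. Below it, 4 of 41 members were higher, beside 6.67% of all genes, and 1 of 41 was lower, beside 3.54%. The dim counts lie near the background of dim genes. The brighter pair is Hoxa13 and Tbx20. Both read below the array median in Mxi1 +/+ and reach this level only through their Mxi1 -/- readings, so the 2 of 45 is a description and supports nothing about the members.

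**Figure D1:**
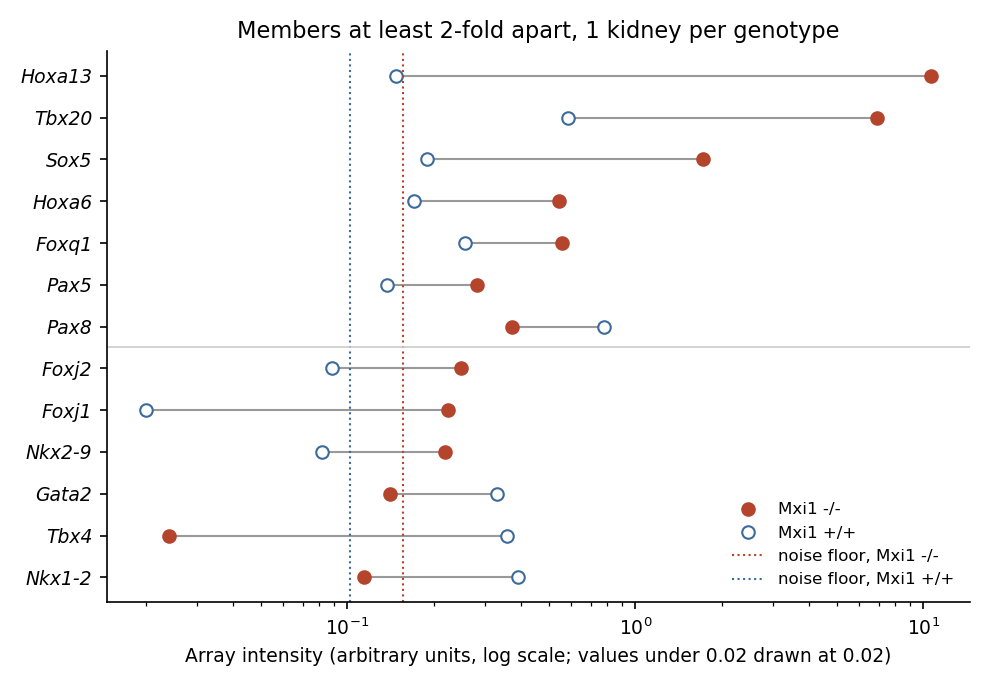
Intensity on a log axis of each member at least 2-fold apart, in Mxi1 -/- (filled) and Mxi1 +/+ (open), 1 kidney each; dotted lines are the noise floors, and the 6 genes under the grey line read above the floor on 1 array only. Hoxa13 and Tbx20 read 10.6 and 6.88 in Mxi1 -/-, and every other gene drawn read under 2 on both arrays; Foxj1 in Mxi1 +/+, at -0.0162, is drawn at the left edge.

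Hoxa13, a posterior Hox gene needed for the digits and for the lower urinary and genital tract, read 10.6 in Mxi1 -/- and 0.147 in Mxi1 +/+. The difference of 6.17 on the log2 scale was the highest of all 8735 genes. The Mxi1 +/+ reading stood only 1.44 times above that array's floor, so its size is loosely set: with the floor placed at 6 times the root mean square, the gene was at least 51.8-fold higher. None of its 4 nearest genes, 2 on each side, was past 2-fold. Hoxa11, the next gene of the cluster, read 0.318 in Mxi1 -/- and 0.421 in Mxi1 +/+. Hoxa10 followed at 3.20 in Mxi1 -/- and 3.31 in Mxi1 +/+. On the other side Evx1, a homeobox gene at the end of the cluster, read 0.591 in Mxi1 -/- and 0.309 in Mxi1 +/+, and the metabolic gene Hibadh beyond it read 153 in Mxi1 -/- and 168 in Mxi1 +/+. The paralogs of Hoxa13 on other chromosomes gave no such difference: Hoxb13, known from prostate and hindgut, read 3.25 in Mxi1 -/- and 3.59 in Mxi1 +/+, and Hoxd13 lay under the floor on both arrays.

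Tbx20, a T-box factor of the heart, read 6.88 in Mxi1 -/- and 0.583 in Mxi1 +/+. Both readings stood clear of the floors, the lower one by 5.70 times, and the log2 difference of 3.56 ranked 7 of 8735. Of 8 heart muscle markers on the array, 4 read above the floor on both and none of these was past 2-fold, with differences from -0.36 (Tnnt2) to 0.90 (Tnni3), and the summed intensity of the 8 was 3.20 in Mxi1 -/- and 2.89 in Mxi1 +/+. The next gene on 1 side on chromosome 9, Herpud2, read 1.07 in Mxi1 -/- and 1.77 in Mxi1 +/+. Cypt4, next on the other side, read 0.172 in Mxi1 -/-, just above the floor, and 0.0656 in Mxi1 +/+, under it.

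Sox5, which acts beside Sox6 in cartilage cells, read 1.71 in Mxi1 -/- and 0.189 in Mxi1 +/+, a log2 difference of 3.18 that ranked 10 of 8735. The Mxi1 +/+ reading stood 1.85 times above its floor. Its mean level lies below the median, where the probe-to-probe SD is 0.494. Its partner Sox6 went the other way, at 0.442 in Mxi1 -/- and 0.756 in Mxi1 +/+. Among cartilage matrix genes, Chad read 12.5 in Mxi1 -/- and 0.971 in Mxi1 +/+, while Col2a1 and Acan, direct targets of the Sox factors in cartilage, read 0.455 and 0.860 in Mxi1 -/- and 0.356 and 0.963 in Mxi1 +/+. Of the 10 cartilage genes on the array, Comp lay under the floor on both arrays, and Chad was past 2-fold among the 6 above both floors. Matn1, a cartilage matrix gene, was also higher, at 0.415 in Mxi1 -/- and 0.100 in Mxi1 +/+, just under the floor there. Col10a1 and Cnmd were under the floor in Mxi1 -/- only. The part of cartilage in the Sox5 reading was not tested.

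The remaining 4 members past the line were dim on both arrays. Hoxa6 read 0.541 in Mxi1 -/- and 0.171 in Mxi1 +/+, and its neighbours in the cluster did not share the difference. Hoxa5 read 16.5 in Mxi1 -/- and 15.7 in Mxi1 +/+, and Hoxa7 read 2.26 in Mxi1 -/- and 2.53 in Mxi1 +/+. Foxq1, known for its part in the hair shaft, read 0.557 in Mxi1 -/- and 0.256 in Mxi1 +/+. The adjacent forkhead genes on chromosome 13, Foxf2 and Foxc1, differed by 0.15 and 0.01 on the log2 scale. Pax5, the B cell identity factor, read 0.281 in Mxi1 -/- and 0.137 in Mxi1 +/+, and it dropped under 2-fold after quantile or lowess normalization. Lymphocyte markers in the same kidneys ranged from -0.45 to 0.47 over the 8 above both floors, with a median of 0.16. Cd79a, part of the B cell receptor, read 4.22 in Mxi1 -/- and 4.07 in Mxi1 +/+. The other B cell genes measured were Cd79b at 0.32, Cd22, which was dim, at 0.27, and Ms4a1. Ms4a1 lay under the floor at 0.126 in Mxi1 -/- and read 0.217 in Mxi1 +/+. Pax8, a factor of the nephric lineage and of the thyroid, read 0.372 in Mxi1 -/- and 0.780 in Mxi1 +/+. The members nearest the line on its inner side were Dlx4 at 0.91 and Foxd1 at 0.89, so Pax5 and Pax8, at 1.04 and -1.07, lie close to values not counted.

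Of 28 probes within 2 places of these 7 in the platform's numbering, 24 read above both floors and 2 of these were past 2-fold. Hic1 beside Pax8 was higher by 1.28, and an unnamed probe beside Sox5 was lower by 2.11, in the direction opposite to Sox5. For scale, 232 of all 8735 genes lay past the same line on the upper side and 186 on the lower side. Both probes directly beside Hoxa6 were higher in Mxi1 -/- as Hoxa6 was, and under the floor in Mxi1 +/+. Prl7a1 read 0.307 in Mxi1 -/- and 0.0309 in Mxi1 +/+, and Tnfsf8 read 0.250 in Mxi1 -/- and 0.0231 in Mxi1 +/+. Hand2, directly beside Pax8, read 0.274 in Mxi1 -/- and 0.0127 in Mxi1 +/+, opposite to Pax8. The part of such neighbours in the readings of Hoxa6 and Pax8 was not tested. Whether numbering follows position on the slide is not given in the sources used here.

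**Figure D2:**
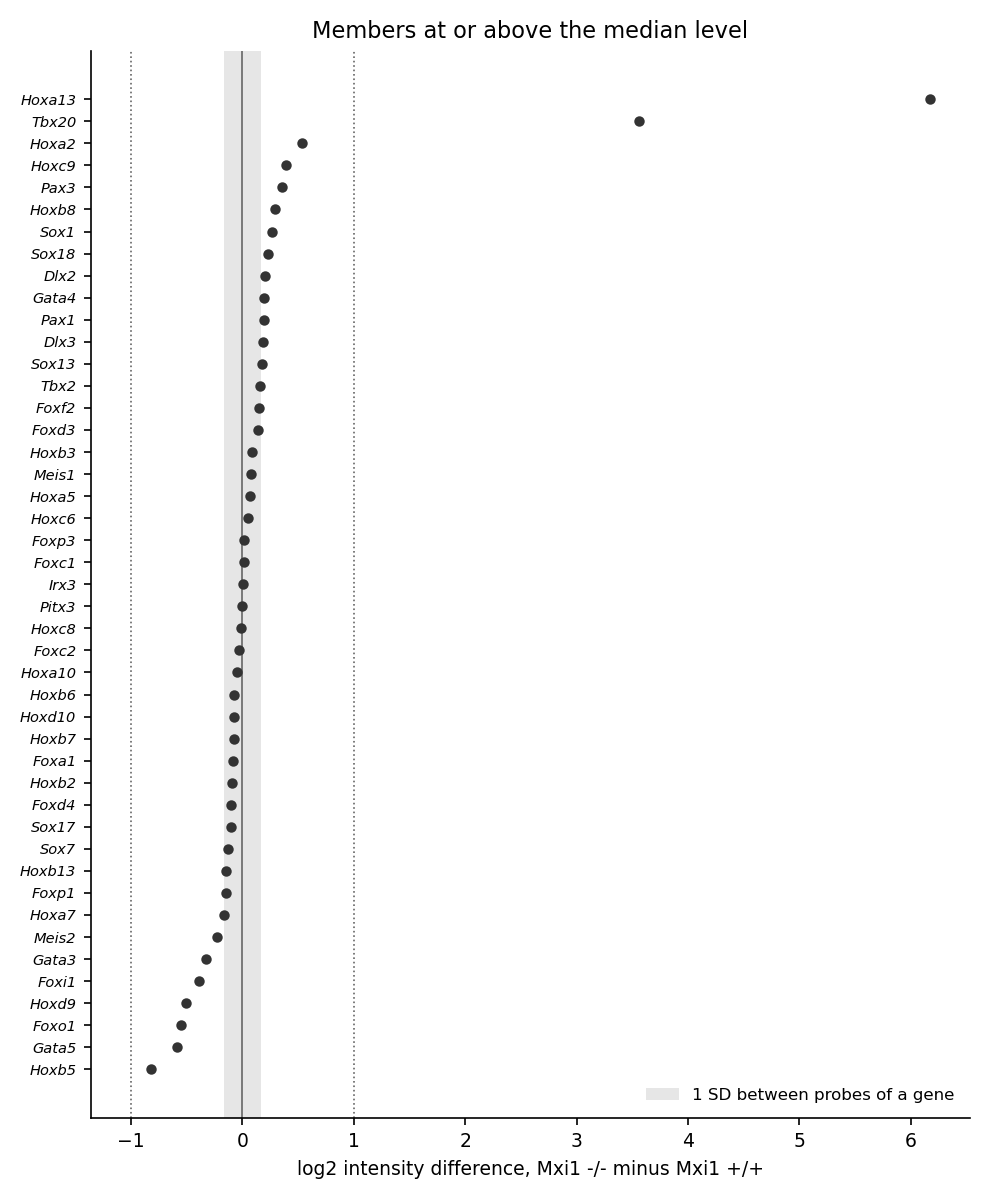
Log2 intensity difference (Mxi1 -/- minus Mxi1 +/+) of the 45 members at or above the median level, sorted; the grey band is 1 SD between probes of a gene (0.167) and dotted lines mark 2-fold. All members but Hoxa13 and Tbx20 lie between -0.82 and 0.54.

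Most of the brighter members read close to the control. Within 1.5-fold of it were 41 of the 45 (91.1%), beside 92.3% of all genes this bright. Within 1 probe-to-probe SD were 25 of the 45, or 55.6%, beside 46.7% of all such genes. Among dim members, 25 of 41 lay within their SD, beside 63.7% of dim genes.

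In the Hox family 27 of 39 RefSeq genes had a named probe, and 24 read above both floors. Of these, 10 were higher and 14 lower, with a median of -0.06, beside 44.8% of all genes higher. The clusters did not differ much in their medians, which were 0.01 for Hoxa (8 genes), -0.08 for Hoxb (7), 0.05 for Hoxc (5) and -0.14 for Hoxd (4). By paralog group, the anterior groups 1 to 4 had a median of 0.23 (4 of 5 higher), groups 5 to 8 had -0.04 (4 of 10 higher) and the posterior groups 9 to 13 had -0.14 (2 of 9 higher, Hoxc9 and Hoxa13). Each range of groups mixes genes at or above the median level, where 40.1% of all genes were higher, with genes below it, where 53.7% were. The 5 anterior genes lay between -0.10 and 0.54, so their 4 of 5 rests on small differences.

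Several Hox genes of the adult kidney were nearly level. Hoxb7, whose promoter is a standard driver for the ureteric bud and collecting duct, read 11.7 in Mxi1 -/- and 12.3 in Mxi1 +/+. Its cluster neighbour Hoxb6 read 8.12 in Mxi1 -/- and 8.53 in Mxi1 +/+, and Hoxb3 read 22.3 in Mxi1 -/- and 21.02 in Mxi1 +/+. Hoxd10, which acts with Hoxa10 in kidney stroma, read 5.26 in Mxi1 -/- and 5.55 in Mxi1 +/+. The Hox11 genes, needed to start ureteric bud growth, were dim: Hoxd11 read 0.573 in Mxi1 -/- and 0.658 in Mxi1 +/+, and Hoxa11 is given above. The remaining genes at this level close to 0 were Hoxb2 (-0.10), Hoxc6 (0.05) and Hoxc8 (-0.01), while Hoxb8 was at 0.29.

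Hoxb5 showed the largest difference on the lower side among the brighter members, at 2.80 in Mxi1 -/- and 4.95 in Mxi1 +/+ (1.77-fold lower). Hoxb6, the next gene of the cluster, was at -0.07. Hoxd9 was 1.42-fold lower, at 1.48 in Mxi1 -/- and 2.11 in Mxi1 +/+. Hoxa9, of the same paralog group but dim, was 1.77-fold lower, and Hoxc9 was 1.32-fold higher, at 3.12 in Mxi1 -/- and 2.37 in Mxi1 +/+. The 3 measured group 9 genes thus did not move as 1. Hoxa2, of the hindbrain and branchial arches, was 1.45-fold higher, at 4.27 in Mxi1 -/- and 2.94 in Mxi1 +/+.

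**Figure D3:**
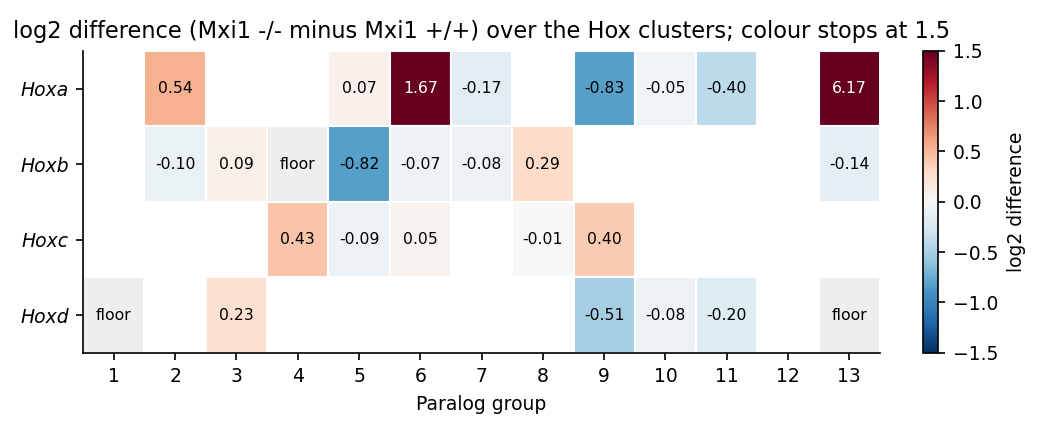
Log2 difference (Mxi1 -/- minus Mxi1 +/+) of each Hox gene with a named probe, by cluster (rows) and paralog group (columns); blank squares have no named probe or no gene, and "floor" marks a gene under the noise floor on at least 1 array. Hoxa13 and Hoxa6 stand out at 6.17 and 1.67, and the other squares with a value lie between -0.83 and 0.54.

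Forkhead genes were split evenly, with 9 higher and 9 lower of the 18 above both floors and a median of -0.01. Foxo1, the factor that insulin signalling shuts out of the nucleus, was at 8.89 in Mxi1 -/- and 13.03 in Mxi1 +/+, 1.46-fold lower. Genes that FoxO factors are known to activate were mixed: 9 of 16 were lower, with a median of -0.18. Over all 8735 genes, 4826 were lower and the median was -0.04, so the count lies near that share. Txnip read 19.6 in Mxi1 -/- and 29.0 in Mxi1 +/+, and Sesn3 read 4.22 in Mxi1 -/- and 5.81 in Mxi1 +/+. Gadd45a was 1.27-fold higher and the gluconeogenic enzyme Pck1 read 338 on both arrays. The 2 past 2-fold, Fbxo32 and Pdk4, were both dim and lower, at 2.47-fold and 2.34-fold. Of all dim genes, 3.54% were at least 2-fold lower. The paralogs Foxo3 and Foxo4 lay under the floor in Mxi1 -/-.

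Foxi1, the master factor of intercalated cells, was at 2.33 in Mxi1 -/- and 3.06 in Mxi1 +/+, 1.31-fold lower. It is known to drive 8 of the measured genes, and 1 of these read higher and 7 lower, with a median of -0.14. Of all genes at or above the median level, 40.1% read higher and the median was -0.06. The chloride-bicarbonate exchangers Slc26a4 and Slc4a9 were 1.49-fold and 1.30-fold lower. The proton pump subunits Atp6v0a4 and Atp6v1b1 were at -0.13 and 0.15. Intercalated cell markers, which share 6 genes with that list, were lower in 6 of 7, with a median of -0.38. Their summed intensity was 87.6 in Mxi1 -/- and 91.6 in Mxi1 +/+, and most of it came from the same Atp6v0a4 and Atp6v1b1. The part of cell number in these differences was not tested. Foxc1 and Foxc2, which act in podocytes and vessels, were level at 1.73 and 4.29 in Mxi1 -/- and 1.72 and 4.38 in Mxi1 +/+. Foxd1, the marker of stromal progenitors, was dim at 0.256 in Mxi1 -/- and 0.138 in Mxi1 +/+.

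The remaining forkhead genes at or above the median level differed little. Foxp3, of regulatory T cells, read 3.08 in Mxi1 -/- and 3.04 in Mxi1 +/+. The urothelial and endodermal pioneer factor Foxa1 read 2.17 in Mxi1 -/- and 2.30 in Mxi1 +/+. Foxp1 was at -0.14, Foxf2 at 0.15, Foxd3 at 0.14 and Foxd4 at -0.10.

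Of the Gata factors, 1 of 4 was higher and 3 were lower, beside 44.8% of all genes higher. Gata3, of the collecting duct, was at 3.04 in Mxi1 -/- and 3.82 in Mxi1 +/+, a log2 difference of -0.33. Marker genes of principal cells, where Gata3 is found, lay between -0.35 and 0.20 with a median of -0.10 over 7. Gata5, of endoderm and heart, had a log2 difference of -0.59, at 2.97 in Mxi1 -/- and 4.47 in Mxi1 +/+. Gata4 was 1.15-fold higher. Gata2, of blood stem cells, vessels and collecting duct, lay under the floor at 0.140 in Mxi1 -/- and read 0.331 in Mxi1 +/+, at least 2.12-fold lower.

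Sox genes were higher in 7 of 10, with a median of 0.20. Of these 10, 5 were at or above the median level, and all genes were higher in 40.1% at that level and 53.7% below it. The SoxF factors of vessels did not move together: Sox18 was at 0.23, Sox17 at -0.11 and Sox7 at -0.13. Endothelial markers had a median of -0.10 over 6 genes, of which 3 were higher and 3 lower. Kdr was 1.30-fold higher and Emcn 1.73-fold lower, and Pecam1 was dim and 2.57-fold lower. Cdh5 was above the floor in Mxi1 -/- only. The SoxD relative Sox13 was at 0.17 and the neural factor Sox1 at 0.27. Sox11 was dim and 1.66-fold higher, while Sox4 lay under the floor on both arrays.

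All 5 measured Lhx genes read higher, between 0.26 and 0.77, with a median of 0.54. Every one of them was below the median level, where 53.7% of all genes were higher and the probe-to-probe SD was 0.494. Lhx1, of the nephric duct, read 0.573 in Mxi1 -/- and 0.381 in Mxi1 +/+, and Lhx2, the largest of the 5, read 0.328 in Mxi1 -/- and 0.193 in Mxi1 +/+.

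Among T-box genes 6 of 7 were higher, with a median of 0.24, beside the same shares of all genes, and only Tbx20 was past 2-fold. Tbx2, which acts with Tbx18 in the ureter wall, read 2.80 in Mxi1 -/- and 2.50 in Mxi1 +/+, and Tbx18 was dim at 0.354 in Mxi1 -/- and 0.3003 in Mxi1 +/+. Tbx4, of hindlimb and lung, lay under the floor at 0.024 in Mxi1 -/- and read 0.357 in Mxi1 +/+, at least 2.29-fold lower.

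The Dlx, Irx, Meis, Pax and Pitx members at or above the median level numbered 8 and stayed within 1.28-fold. Irx3 was level at 9.34 in Mxi1 -/- and 9.28 in Mxi1 +/+. Pitx3 read 1.93 on both arrays. Dlx3, of skin and placenta, read 17.8 in Mxi1 -/- and 15.7 in Mxi1 +/+, and Dlx2 read 7.74 in Mxi1 -/- and 6.72 in Mxi1 +/+. Meis1 and Meis2, cofactors that bind DNA beside Hox proteins, were at 0.08 and -0.23. Pax3, known from neural crest and muscle, read 44.9 in Mxi1 -/- and 35.2 in Mxi1 +/+, the largest difference of the 8, and Pax1 was at 0.19.

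**Figure D4:**
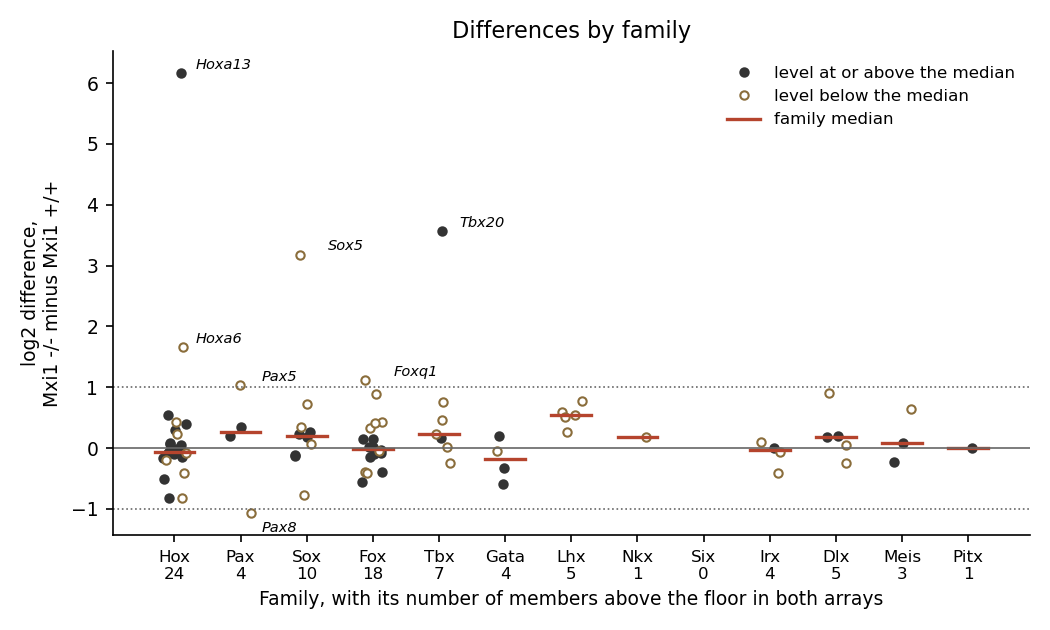
Log2 difference (Mxi1 -/- minus Mxi1 +/+) of the 86 members above both floors, by family; filled points are at or above the median level, open points below it, red bars are family medians and dotted lines mark 2-fold. Family medians lie between -0.18 (Gata) and 0.54 (Lhx), and the 7 named genes lie outside the lines.

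Of the 18 members above the floor on 1 array, 15 were above it in Mxi1 +/+ only and 3 in Mxi1 -/- only. All genes leaned the same way, at 748 and 303, and the floor itself was higher on the Mxi1 -/- array. The bounds were small, from 1.06-fold to 2.50-fold. The 4 with no bound were Foxe3, Foxl1, Foxn1 and Foxo4. At least 2-fold higher in Mxi1 -/- were Foxj2 at 2.43-fold, Foxj1, the master gene of motile cilia, at 2.19-fold and Nkx2-9 at 2.14-fold. At least 2-fold lower were Nkx1-2 at 2.50-fold, Tbx4 and Gata2. The other bounds, all lower and up to 1.82-fold, belonged to Hoxd1, Pax9, Sox2, Foxf1, Foxn4, Foxo3, Foxp4 and Nkx2-2. Under the floor on both arrays were Hoxb4, Hoxd13, Sox4, Foxa3, Foxh1, Foxp2, Tbx15, Lhx9, Nkx2-5, Six6 and Pitx1. Six6, of the eye, is the only named member of its family. Of 5 Nkx genes, Nkx3-2 alone was above both floors, at 0.18.

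The dim members above both floors and inside the line, 36 of the 41, ranged from Hoxa9 at -0.83 to Dlx4 at 0.91. Foxm1, the forkhead of dividing cells, read 1.13 in Mxi1 -/- and 0.846 in Mxi1 +/+. Tbx21, the T helper cell factor, read 0.393 in Mxi1 -/- and 0.287 in Mxi1 +/+. Irx5, which lies beside Irx3, read 0.724 in Mxi1 -/- and 0.959 in Mxi1 +/+. Of the 41, 27 were within 1.5-fold (65.9%), beside 70.9% of all dim genes.

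The TALE homeodomain partners of Hox proteins were lower in the 5 above both floors, with a median of -0.26, beside 4826 of 8735 genes lower in all. The other named partner, Pknox2, went the opposite way, at 0.232 in Mxi1 -/- and 0.0263 in Mxi1 +/+, under the floor there. Among them Tgif1 read 2.25 in Mxi1 -/- and 2.70 in Mxi1 +/+, and Pbx2 read 4.44 in Mxi1 -/- and 4.80 in Mxi1 +/+. Among Eya and Dach genes, cofactors that Six6 and its relatives bind, Dach1 was 1.97-fold higher, at 4.39 in Mxi1 -/- and 2.23 in Mxi1 +/+, and Eya3 was 1.67-fold lower, at 4.49 in Mxi1 -/- and 7.499 in Mxi1 +/+. LIM and GATA partners were higher in 3 of 7, with Lmo2 at -0.43 and Lmo1 at -0.42. Zfpm2, a cofactor of Gata factors, was dim and past 2-fold, at 0.242 in Mxi1 -/- and 0.116 in Mxi1 +/+. Groucho corepressors had a median of 0.06 over 4.

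Polycomb and trithorax genes, which hold Hox clusters silent or active, were lower in 7 of 11 with a median of -0.10. The brighter ones lay between -0.26 (Eed) and 0.26 (Phc2). Bmi1, a Polycomb subunit just below the median level, was 2.27-fold lower, at 0.669 in Mxi1 -/- and 1.52 in Mxi1 +/+. Its relatives Ring1 and Phc1 were at -0.10 and -0.25.

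Homeobox genes outside the 13 families were higher in 21 of 36, with a median of 0.07, beside 44.8% of all genes higher. Gsc had the largest difference among those at or above the median level, at 5.02 in Mxi1 -/- and 3.18 in Mxi1 +/+, followed by Zfhx3 at 0.35, Shox2 at 0.28 and Msx2 at 0.26. The 5 past 2-fold, namely Evx2, Vsx1, Pdx1 and Tlx2 higher and Hhex lower, were all dim. Evx2 sits at the end of the Hoxd cluster as Evx1 does for Hoxa, and read 0.412 in Mxi1 -/- and 0.138 in Mxi1 +/+.

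Other kidney development factors held their level, with 8 of 15 lower and a median of -0.02. Tcf21, of stroma and podocytes, read 23.6 in Mxi1 -/- and 24.0 in Mxi1 +/+, Nr2f2 read 37.9 in Mxi1 -/- and 39.0 in Mxi1 +/+, and Wt1 read 2.01 in Mxi1 -/- and 1.82 in Mxi1 +/+. Sall1 was at -0.27 and Osr2 at -0.18. Elf5, a principal cell factor, was dim and 3.41-fold lower, at 0.429 in Mxi1 -/- and 1.46 in Mxi1 +/+. Among signals that these factors act with, Bmp4 was at -0.28, Bmp7 at 0.09, Spry1 at -0.09 and Cited1 at -0.33, while Wnt4 and Fgf7 were dim and 2.55-fold and 2.23-fold lower.

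The 7 proximal tubule, 5 distal convoluted tubule and 7 principal cell genes named on the array all read above the floor on both arrays, so these kidney markers were present, as were macrophage and fat cell markers. Thick ascending limb markers had a median of -0.41 over 3 and podocyte markers 0.15 over 3. Fat cell markers differed far more than the members did: 9 of 9 were lower, 8 of them past 2-fold, and the summed intensity of the 10 named was 90.7 in Mxi1 -/- and 266 in Mxi1 +/+. Of factors known from fat, the members Hoxc8, Hoxc9 and Foxc2 were at -0.01, 0.40 and -0.03, while Pparg, from the fat cell marker list, was at -1.46. Smooth muscle markers were lower in 5 of 6, with a median of -0.66, and skeletal muscle markers had a median of -0.55 over 3. Markers of stratified epithelium and urothelium were lower in 7 of 9, with Krt5 at 0.684 in Mxi1 -/- and 3.30 in Mxi1 +/+. Krt13 was dim and 2.52-fold higher, and the urothelial genes Upk1b and Upk2 were at 0.04 and -0.40. Foxa1 and Dlx3 were at -0.08 and 0.19. Macrophage markers were higher in 5 of 6, with a median of 0.43. Adrenal cortex markers had a median of 0.24 over 6, all dim except Nr5a1, and Cyp11a1 and Mc2r lay under the floor in Mxi1 -/-.

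For Hoxa13, genes of the male accessory glands were listed as another tissue of the lower tract. Svs2 and Svs6, seminal vesicle proteins, read 0.309 and 0.457 in Mxi1 -/- and 0.109 and 0.173 in Mxi1 +/+. They were dim and 2.83-fold and 2.64-fold higher, where 6.67% of all dim genes were at least 2-fold higher. Svs2 in Mxi1 +/+ stood just above the floor of 0.102. Sbp was at 0.19 and Spink1 at 0.15, so the 4 above both floors were all higher, with a median of 0.80. Msmb went the other way, at 0.03 in Mxi1 -/-, under the floor, and 0.149 in Mxi1 +/+. Svs5 lay under the floor on both arrays. Whether the amount of any of these tissues in the samples bears on a member's reading was not tested.

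**Figure D5:**
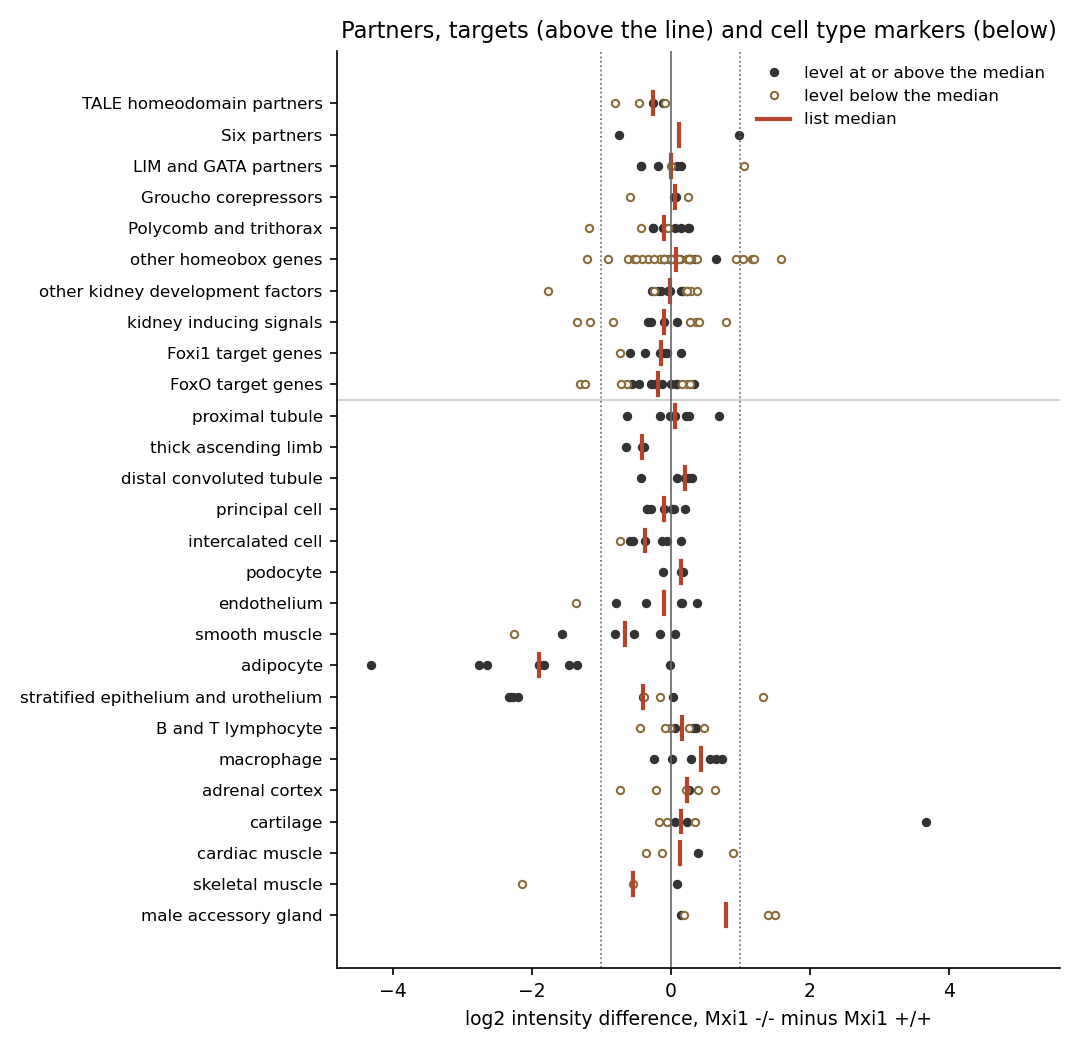
Log2 difference (Mxi1 -/- minus Mxi1 +/+) of partner, target and marker genes above both floors, 1 row per list; filled points are at or above the median level, open points below it, and red bars are list medians. The adipocyte row, with a median of -1.89, lies far to the left, and the partner and target rows centre between -0.26 and 0.12.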

How the data were processed

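Kidney total RNA of 1 Mxi1 -/- and 1 Mxi1 +/+ mouse was made into biotinylated cRNA with a kit for CodeLink arrays, per the labels' protocols. The deposited values are linear intensity readings of 20289 probes. The sources used here do not give the software, background correction or scaling behind them. The code -9999 was read as missing. The platform table named 10208 genes, 9940 probes stayed unnamed, and symbols were updated through gene identifiers (RefSeq, GRCm38.p6).

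Probes above 0 on both arrays (19663) were put on the log2 scale, with no pseudocount added, and centred. A gene took its probe of highest mean level, and every member had 1 probe. "Median level" is the median over these probes. Members with both readings above the floor were counted. Members, lists and naming rule were chosen with earlier results of these data known. Named were members past 2-fold, those with such a bound, those at or above the median level and a set of kidney factors, with up to 4 brighter genes of each other list; further genes, such as Sox6, Bmi1, Elf5 and Wnt4, were chosen after their values were seen. Steps were tested on simulated data. Lowess came from statsmodels 0.14.6, figures from matplotlib 3.10.9, and tables from pandas 2.3.3 and NumPy 2.4.6 (Python 3.11.15). Centring, scaling, pseudocount, floor, level and line were varied. The number of arrays limits the precision.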

Additional observations from a re-analysis of the deposited data

How the results depend on the processing

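The median difference of the members (0.07 on the log2 scale) stayed between 0.01 and 0.07 under all 9 alternatives. The count of members at least 2-fold higher, 6 as reported, was 6 without centring or with probes averaged and 5 after quantile or lowess normalization, which lost Pax5. It was 9 with members at their floor and 9 over all members above 0. It fell to 3 with a pseudocount of the array median (Hoxa13, Tbx20 and Sox5), 2 at or above the median level and 2 with a floor at 6 times the root mean square, an alternative added after seeing the data, and was 13 at 1.5-fold and 4 at 3-fold. With that higher floor Hoxa13, Sox5 and Hoxa6 became bounds of at least 51.8-fold, 8.38-fold and 2.65-fold higher. The count at least 2-fold lower, 1 as reported, was 0 with the pseudocount, 0 at 3-fold, 0 among members of at least median level, 4 with members at their floor, 5 at 1.5-fold and 8 over all members above 0. A pseudocount shrinks differences by construction and moved Hoxa13 to 3.31, Tbx20 to 2.30, Sox5 to 1.18, Hoxa6 to 0.39, Foxq1 to 0.31, Pax5 to 0.17 and Pax8 to -0.37. Of 55 members tracked through 5 alternatives, 3 changed sign, the largest at 0.05. Signal over background limits the members near the floor: 68 of the 86 stayed above both floors when these were set at 6 times the root mean square.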
